A study of Mus musculus with 20 samples.

Results

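Genes were compared for how differently they changed with the DKO condition in FAP and in Misc, which are cell populations taken from mouse quadriceps, tibialis anterior and gastrocnemius muscle. The rule was one contrast, the DKO minus WT difference in FAP less the DKO minus WT difference in Misc, on the log2 scale and over all genes. It used 16 of the series' 20 libraries, with 4 in FAP DKO, 4 in FAP WT, 4 in Misc DKO and another 4 in Misc WT. The remaining 4, from a population labelled SMP, shared the estimate of spread and the filter on low counts. Of 14179 genes tested, 396 passed, and these were sorted into opposite changes, changes called in one population only, and changes in the same direction that differed in size. The labels give only the condition as DKO or WT. They do not name the altered genes, the strain, age or sex of the animals, or how the populations were separated. The labels call one population Misc where the design text has FB. The replicates are called biological, but no label says that each came from its own animal or that animals were not pooled. The p-values therefore measure the spread between libraries.

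Fibro/adipogenic progenitors, usually shortened to FAP, are mesenchymal cells of the muscle interstitium that express Pdgfra and Ly6a and can give rise to adipocytes and matrix-producing fibroblasts. Fibroblasts of tendon and of the connective tissue layers around muscle share many matrix genes with them but express Tnmd, Fmod and Thbs4 strongly. Matricellular proteins such as tenascins, thrombospondins, periostin and the CCN proteins sit in the matrix and modify how cells respond to it, and they are known to rise in injured or fibrotic muscle. A positive value of the contrast means that DKO was further above WT, or less far below it, in FAP than in Misc.

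Total counts were 6739010 to 11039053 per library in FAP DKO, 10464761 to 13042515 in FAP WT, 8360658 to 8492813 for Misc DKO libraries and 9566333 to 17730111 for Misc WT libraries. Levels are given as CPM, each gene's count scaled to a common library total. Ly6a averaged 484 ± 49.8 CPM in FAP DKO and 612 ± 76.9 in FAP WT, against 5.62 ± 1.76 in Misc DKO and 5.47 ± 2.07 in Misc WT (SD, n = 4 each). Tnmd ran the other way, with 58.0 ± 19.7 CPM in FAP DKO, 41.2 ± 5.89 in FAP WT, 1978 ± 180.3 in Misc DKO and 2203 ± 362 in Misc WT. The FAP label thus went with high Ly6a, and the Misc libraries carried tendon markers. Des, which encodes the muscle intermediate filament desmin, was lower in DKO in both populations, with no called difference between them (contrast −0.56 ± 0.33, log2 ± SE). Syne1, which encodes nesprin 1, missed the threshold in FAP (−0.31 ± 0.12), was lower in Misc DKO than in Misc WT (−0.69 ± 0.12), and its contrast of 0.38 ± 0.17 was not called. Libraries numbered 3 stood apart within DKO in both populations. Xist, the RNA of the inactive X chromosome, had 0.387 CPM in FAP DKO 3 and 0.36 CPM in Misc DKO 3, against 374 to 530.3 CPM in the other 6 DKO libraries. The Y-linked Ddx3y had 144 CPM in FAP DKO 3 and 89.6 CPM in Misc DKO 3, and at most 0.313 CPM in those 6. Every WT library held both RNAs, with 47.0 to 229 CPM of Xist and 66.0 to 124 CPM of Ddx3y. By these RNAs the WT libraries held material of both sexes and each DKO library mainly of a single sex. The sex make-up of the libraries thus differed between DKO and WT. The part of this pattern in the DKO differences cannot be told apart from the condition, and the main count below is also given without the pair numbered 3.

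The DKO effect differed between FAP and Misc at 396 genes, or 2.79% of those tested (edgeR quasi-likelihood test, Benjamini-Hochberg adjusted p below 0.05). The contrast was positive at 194 of these (1.37%) and negative at 202 (1.42%), and 1807 genes had an unadjusted p below 0.05. In bulk samples, fewer cells of a type and less RNA per cell cannot be told apart, which holds for every value that follows. Libraries that share a number and a condition in FAP and in Misc deviated together from their group means, so the FAP and Misc libraries alone, without SMP, were also fitted with the 8 FAP-Misc pairs as a block. Those libraries gave 590 called genes without the block, 330 positive and 260 negative. With the replicate block they gave 1246, 761 positive and 485 negative, and 394 of the 396 were among them, all with the same sign. Leaving out the FAP and Misc DKO libraries numbered 3 gave 290 called genes, of which 265 were among the 396, and this check was chosen after the data were seen.

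Most genes that responded in both populations responded alike. DKO against WT was called at 1520 genes in FAP (10.7%), of which 791 were higher (5.58%) and 729 lower (5.14%). In Misc it was called at 2652 genes (18.7%), of which 1298 were higher (9.15%) and 1354 lower (9.55%), and 814 genes were called in both. Of those 814, 781 changed in the same direction, and the difference between populations was not called at 739 of the 781. All 33 genes with opposite signs also passed the contrast, which leans on the same libraries as the sorting. Of the 706 genes called in FAP but not in Misc, 97 passed the contrast, and of the 1838 called in Misc but not in FAP, 212 did. A gene called in one population and missed in the other was therefore more often not shown to differ between them than shown to differ. Across the 14179 genes, Pearson's r between the FAP and Misc log2 changes was 0.477, a description over genes that share libraries and are not independent replicates.

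**Figure D1:**
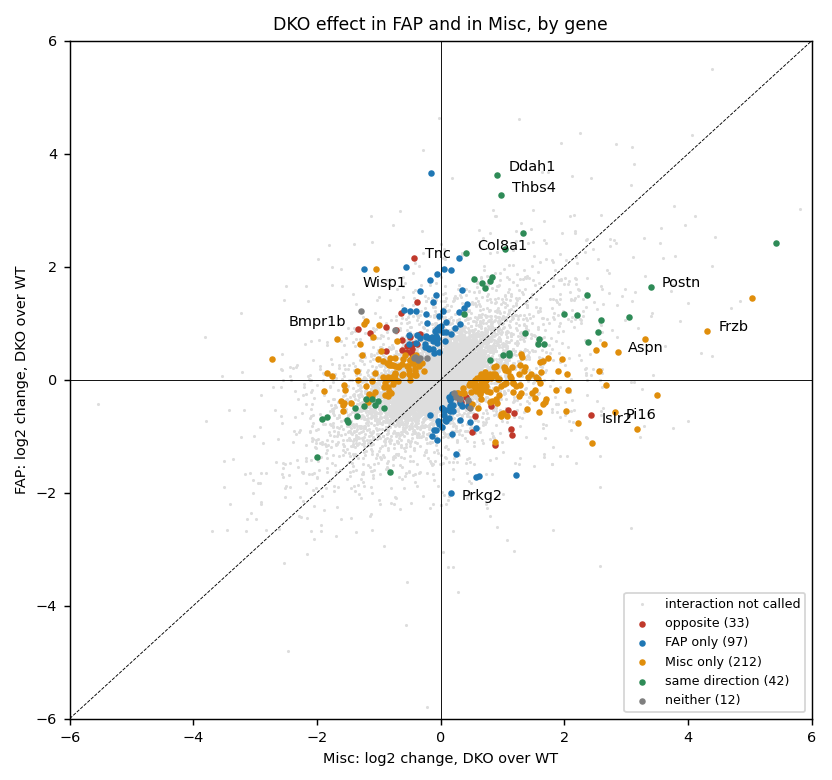
DKO over WT log2 change of each of 14179 genes in FAP (vertical) against Misc (horizontal), one point per gene, coloured by class where the difference between the populations was called, with the dashed line where both changes are equal. The 33 opposite genes lie in the upper left and lower right parts, the 97 FAP-only genes along the vertical axis and the 212 Misc-only genes along the horizontal axis.

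The 396 genes divided into 33 with opposite changes (0.233% of genes tested), 97 called in FAP only (0.684%), 212 called in Misc only (1.5%), 42 in the same direction (0.296%) and 12 called in neither population alone (0.0846%). A missed threshold does not show that a gene was unchanged. The 95% interval of the change in the other population lay inside a 1.5-fold change either way for 69 of the 97 FAP-only genes and for 128 of the 212 Misc-only genes. The gene nearest inside the threshold was Il1rap, with a contrast of −0.60 ± 0.17, and the nearest outside was Ogfrl1, with 0.75 ± 0.21.

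The opposite group held 18 genes that rose in FAP and fell in Misc and 15 that fell in FAP and rose in Misc. DKO and WT libraries did not overlap in either population at 28 of the 33 (84.8%), beside 653 of the 814 genes called in both populations (80.2%) and 7.53% of all genes tested. In the first set the largest contrast was that of Tnc, which encodes the matricellular glycoprotein tenascin C (chr4:63959785-64047015, mm10). It had 177, 187, 137 and 186 CPM in FAP DKO, against 42.4, 40.1, 32.1 and 39.7 CPM in FAP WT. In Misc, Tnc had 1459, 1462, 1132 and 1529 CPM in DKO, against 1978, 1766, 1790.3 and 1975 CPM in WT. All FAP DKO libraries lay above all FAP WT libraries, and all Misc DKO libraries lay below all Misc WT libraries. The log2 change was 2.16 ± 0.12 in FAP and −0.43 ± 0.11 in Misc, a difference of 2.58 ± 0.17 (adjusted p = 9e-10). Even after this rise, the mean in FAP DKO of 172 ± 23.6 CPM stayed below the 1395 ± 179 CPM of Misc DKO.

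Col8a2, a chain of the network-forming type VIII collagen, had 41.1, 49.4, 36.8 and 39.8 CPM in FAP DKO, against 24.2, 22.0, 20.3 and 27.5 CPM in FAP WT. In Misc it fell by more than it rose in FAP, with 216, 157, 161 and 197 CPM in DKO against 445, 359, 390.4 and 419 CPM in WT. The DKO and WT libraries were apart in both populations, and the contrast was 1.97 ± 0.27 (adjusted p = 0.00036). Mfap4, which encodes a glycoprotein of elastic microfibrils, had 243, 373, 309 and 322 CPM in FAP DKO and 146, 134, 124 and 148 CPM in FAP WT. Its Misc values were 764, 681, 780.4 and 863 CPM in DKO and 1355, 1171, 1051 and 1259 CPM in WT. DKO lay above WT in FAP and below WT in Misc, without overlap in either, for a contrast of 1.82 ± 0.30. Leprel1, the prolyl 3-hydroxylase now named P3h2 that modifies collagen chains, rose in FAP by 1.38 ± 0.16 and fell by 0.39 on the log2 scale in Misc (SE 0.11). Its means were 10.6 ± 1.78 CPM in FAP DKO and 4.1 ± 0.853 in FAP WT, then 112 ± 17.5 in Misc DKO and 146 ± 7.35 in Misc WT.

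Myo7a, an unconventional myosin best known from sensory hair cells, averaged 15.1 ± 1.03 CPM in FAP DKO and 8.16 ± 1.53 in FAP WT, with 69.2 ± 15.6 in Misc DKO and 115 ± 16.3 in Misc WT. Cgref1, an EF-hand protein, followed the same pattern at a contrast of 1.82 ± 0.31. Bmpr1b, a type I receptor for bone morphogenetic proteins, had the second largest positive contrast of the opposite genes, 2.23 ± 0.25 (adjusted p = 8.5e-06). Its FAP groups met at one value, with 3.82, 2.98, 4.84 and 4.51 CPM in DKO and 2.98, 1.93, 1.34 and 2.57 CPM in WT. Its Misc values were 18.3, 17.6, 16.9 and 21.2 CPM in DKO against 47.6, 48.7, 41.8 and 49.8 CPM in WT, with no overlap. Adamts3, a protease that trims procollagen, rose in FAP (0.81 ± 0.13) and was lower in Misc (−0.34 ± 0.11). Epha4, an ephrin receptor, did likewise (0.64 ± 0.13 in FAP and −0.38 ± 0.13 in Misc). Sdc1, which encodes the cell-surface heparan sulphate proteoglycan syndecan 1, averaged 33.6 ± 4.82 CPM in FAP DKO and 23.6 ± 3.69 in FAP WT, with 64.2 ± 6.68 in Misc DKO and 119 ± 8.93 in Misc WT. Psat1, an enzyme of serine synthesis, averaged 31.1 ± 8.94 CPM in FAP DKO and 18.9 ± 1.26 in FAP WT, with 16.0 ± 3.72 in Misc DKO and 24.6 ± 2.37 in Misc WT. Psat1 was thus higher in FAP than in Misc in DKO, and lower in FAP than in Misc in WT. The rest of the 18 were Fxyd6, Trabd2b, Csdc2, Rnf150, Synm, Mpp7 and Rnf144a, with contrasts of 0.93 to 1.25.

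**Figure D2:**
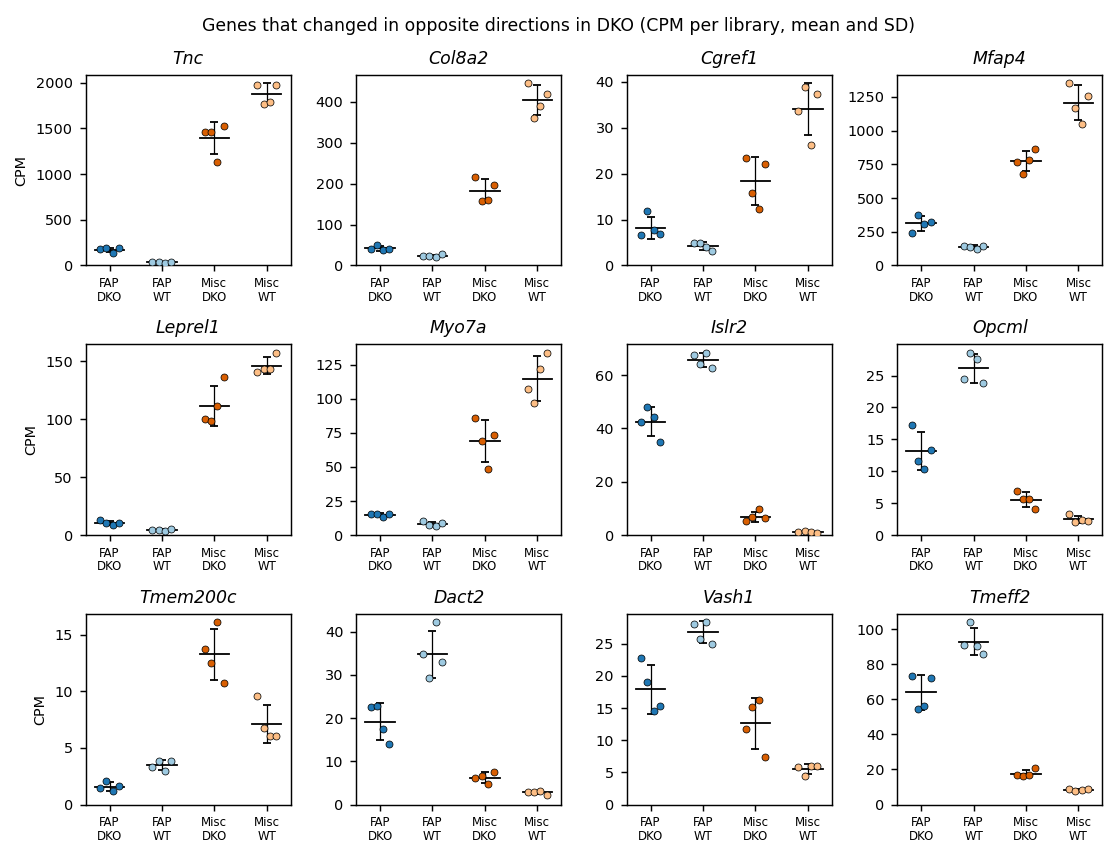
CPM in each library of the 12 opposite genes chosen by rank, with 4 points per group, a bar at the mean and whiskers of 1 SD. In Tnc, Col8a2, Cgref1, Mfap4, Leprel1 and Myo7a the FAP DKO points lie above FAP WT and the Misc DKO points below Misc WT, and in Islr2, Opcml, Tmem200c, Dact2, Vash1 and Tmeff2 the reverse holds.

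Islr2 and Opcml, membrane proteins known from neurons, had the largest contrasts among genes that fell in FAP and rose in Misc. Islr2, a leucine-rich repeat protein of axon guidance (chr9:58196297-58204319, mm10), had 42.5, 47.9, 44.3 and 35.0 CPM in FAP DKO against 67.4, 64.1, 68.2 and 62.6 CPM in FAP WT. Its Misc values were 5.1, 6.59, 9.59 and 6.22 CPM in DKO against 1.24, 1.66, 1.18 and 0.908 CPM in WT. The groups were apart in both populations, and the contrast of −3.06 ± 0.29 (adjusted p = 1.1e-06) was the largest of the opposite genes in size. Opcml, a cell adhesion molecule of the IgLON family, had 17.3, 11.6, 10.4 and 13.3 CPM in FAP DKO against 24.4, 28.6, 27.6 and 23.9 CPM in FAP WT. In Misc it had 6.84, 5.63, 5.63 and 4.14 CPM in DKO against 3.3, 1.97, 2.28 and 2.27 CPM in WT. Islr2 and Opcml were both higher in FAP than in Misc in either condition, and the gap was narrower in DKO. Tmeff2, a transmembrane protein with follistatin-like domains, averaged 64.0 ± 9.96 CPM in FAP DKO, 92.9 ± 7.89 in FAP WT, 17.6 ± 2.04 in Misc DKO and 8.28 ± 0.388 in Misc WT.

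Dact2, which binds Dishevelled in Wnt signalling, had 22.6, 22.7, 17.4 and 13.9 CPM in FAP DKO against 34.9, 29.2, 42.2 and 32.9 CPM in FAP WT. It had 6.1, 6.71, 4.67 and 7.51 CPM in Misc DKO against 2.83, 3.0, 3.1 and 2.27 CPM in Misc WT, and its contrast was −2.01 ± 0.25. Wnt5a, a Wnt ligand that acts largely without beta-catenin, averaged 43.3 ± 10.9 CPM in FAP DKO and 68.3 ± 11 in FAP WT, with 41.8 ± 5.3 in Misc DKO and 28.5 ± 2.05 in Misc WT. The populations thus stood at different Wnt5a levels in WT and at nearly equal ones in DKO. Zyx, which encodes the focal adhesion protein zyxin, had 138, 137, 126 and 124 CPM in FAP DKO against 182, 177, 183 and 184 CPM in FAP WT. Its Misc values were 81.9, 91.0, 84.1 and 83.7 CPM in DKO against 41.8, 46.8, 53.7 and 51.4 CPM in WT, and with a contrast of −1.28 ± 0.12 it had the smallest adjusted p of this direction (9.5e-07). Tmem200c fell in FAP (−1.16 ± 0.27) and rose in Misc (0.88 ± 0.21). Vash1, an angiogenesis inhibitor that also trims tubulin, did so too (−0.58 ± 0.18 in FAP and 1.19 ± 0.20 in Misc). Beside Col5a1, described next, the 15 also held Cttnbp2, Ppp1r14b, Tmem65, Sirpa and Add3, with contrasts of −1.43 to −0.61.

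Col5a1, which encodes the type V collagen chain that limits fibril diameter, was the one fibrillar collagen with a called contrast. It had 2139, 2055, 2141 and 1754 CPM in FAP DKO against 3161, 2817, 2529.8 and 2707 CPM in FAP WT. Its Misc libraries held 1866, 1363, 1581 and 1616 CPM in DKO against 1211, 1154, 1262 and 1126 CPM in WT. The changes were close to equal in size and opposite in sign, −0.47 ± 0.11 in FAP and 0.43 ± 0.11 in Misc. For Col3a1 the values leaned the same way (−0.42 in FAP and 0.32 in Misc) with an adjusted p of 0.084, and of 0.029 when only the FAP and Misc libraries were fitted. Col1a1 and Col1a2, the chains of type I collagen, had positive contrasts of 0.49 ± 0.28 and 0.60 ± 0.28 that were not called.

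Among the 97 genes called in FAP only, 58 rose and 39 fell. Of 5 CCN genes tested, which encode matricellular modulators of growth factor signalling, 2 were among them, beside 0.684% of all genes tested. The other 3 CCN genes had no called contrast. Ctgf, the gene for CCN2, had 502, 826, 901 and 744 CPM in FAP DKO against 246, 244, 279 and 280.2 CPM in FAP WT. The Misc values of Ctgf were 2274, 3349, 2939 and 3308 CPM in DKO against 3612, 3474, 2740.1 and 2755 CPM in WT. The FAP groups were far apart while the Misc groups overlapped, and the changes were 1.5 ± 0.16 in FAP and −0.08 ± 0.16 in Misc with a contrast of 1.59 (adjusted p = 0.00012). Wisp1, the gene for CCN4, had 12.5, 14.9, 15.2 and 14.8 CPM in FAP DKO against 6.28, 4.05, 3.76 and 5.05 CPM in FAP WT. In Misc it had 133, 168, 142 and 146 CPM in DKO against 224, 167, 149 and 203 CPM in WT, so those groups overlapped (−0.34 ± 0.12, adjusted p = 0.058). With only the FAP and Misc libraries in the fit, the Misc change of Wisp1 passed at an adjusted p of 0.039 and the gene became an opposite change.

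C1qtnf3, a secreted C1q and TNF related protein, had 25.9, 33.5, 16.3 and 40.2 CPM in FAP DKO against 7.69, 7.8, 6.18 and 7.24 CPM in FAP WT. Its Misc groups did not overlap either, with 173, 129.6, 123 and 169.9 CPM in DKO against 266, 223, 182 and 203 CPM in WT, but its Misc change of −0.56 ± 0.20 missed the threshold (adjusted p = 0.069). It too became an opposite change when only FAP and Misc libraries were fitted (adjusted p = 0.048 in Misc). Actn1, which encodes the actin crosslinker alpha-actinin 1, was a plain case of a change in one population. It had 54.5, 61.9, 50.8 and 55.0 CPM in FAP DKO against 31.7, 25.6, 26.4 and 31.0 CPM in FAP WT, while in Misc it had 146 to 150 CPM in DKO and 144 to 152 CPM in WT. The 95% interval of its Misc change ran from −0.18 to 0.19. Actn1 was chosen after its values were seen.

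Of 19 genes tested of the ADAMTS family of secreted proteases, 3 were called in FAP only, 1 changed oppositely and 15 had no called contrast. Over all genes tested, 0.684% were called in FAP only and 0.233% changed oppositely. Adamts17 averaged 5.93 ± 0.681 CPM in FAP DKO and 1.52 ± 0.561 in FAP WT, against 7.3 ± 1.01 in Misc DKO and 7.01 ± 2.43 in Misc WT. Adamts9 rose by 1.00 ± 0.19 in FAP, with −0.23 ± 0.18 in Misc, and Adamts6 rose by 0.57 ± 0.12 in FAP, with −0.20 ± 0.12 in Misc. The Adamts6 groups overlapped in FAP, at 15.4 to 21.7 CPM in DKO and 10.4 to 15.7 CPM in WT, and not in Misc, at 29.7 to 32.2 CPM in DKO and 33 to 36.9 CPM in WT. Nipal1, a magnesium transporter, rose to 7.11 ± 1.43 CPM in FAP DKO, against 2.07 ± 0.876 in FAP WT, and had 5.63 ± 1.54 in Misc DKO and 6.35 ± 1.07 in Misc WT. Masp1, a serine protease of the lectin pathway of complement, had 6.72, 12.2, 10.5 and 11.2 CPM in FAP DKO against 1.81, 2.43, 4.17 and 1.9 CPM in FAP WT. Its contrast of 3.20 ± 0.62 was called, and its Misc levels were low, at 0.558 ± 0.221 CPM in DKO and 1.32 ± 0.228 in WT. With counts thinned to the smallest library, the adjusted p of the Masp1 contrast was 0.061.

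Among genes that fell in FAP only, Prkg2, a cGMP-dependent protein kinase, had 4.57, 3.92, 3.1 and 2.45 CPM in FAP DKO against 14.1, 15.9, 16.7 and 9.23 CPM in FAP WT. In Misc it had 11.3, 13.4, 8.75 and 12.7 CPM in DKO against 11.7, 9.39, 9.74 and 10.3 CPM in WT. FAP WT and Misc WT thus had similar levels, and FAP DKO alone was low (−2.00 ± 0.21 in FAP, 0.16 ± 0.19 in Misc). Kcnab1, a beta subunit of voltage-gated potassium channels, averaged 1.2 ± 0.758 CPM in FAP DKO and 4.06 ± 1.24 in FAP WT, with 10.2 ± 1.3 in Misc DKO and 6.87 ± 1.1 in Misc WT. Aldh1a3, an enzyme that makes retinoic acid, fell in FAP (−0.86 ± 0.21) and had 0.57 ± 0.22 in Misc (adjusted p = 0.084). Ntm, an IgLON adhesion molecule like Opcml, fell in FAP by 1.32 on the log2 scale (SE 0.29), but its contrast (adjusted p = 0.028) was lost when any of 8 of the 16 libraries was left out, up to 0.077 without FAP WT 4.

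**Figure D3:**
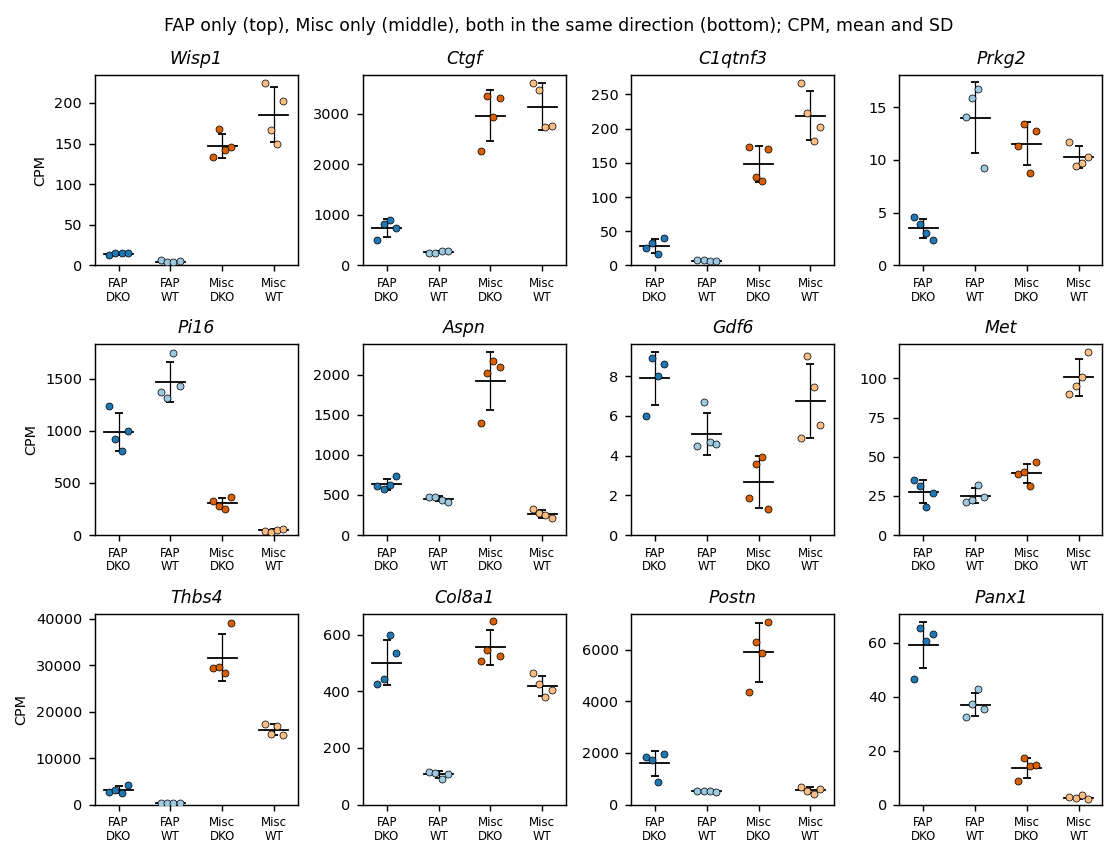
CPM in each library, with 4 points per group, a bar at the mean and whiskers of 1 SD, for genes called in FAP only (top row), in Misc only (middle row) and in both in the same direction (bottom row). Ctgf and Prkg2 separate DKO from WT in FAP alone, Gdf6 and Met in Misc alone, and Thbs4 and Postn in both but by unequal amounts.

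The 212 genes called in Misc only comprised 125 that rose and 87 that fell. Pi16, a peptidase inhibitor that marks adventitial fibroblasts (chr17:29318796-29328903, mm10), had 1235, 919, 803 and 999 CPM in FAP DKO against 1375, 1317, 1748 and 1432 CPM in FAP WT. In Misc, Pi16 had 327, 281, 248 and 368 CPM in DKO against 40.1, 28.9, 44.0 and 61.4 CPM in WT. The groups were apart in both populations, with FAP DKO below FAP WT and Misc DKO above Misc WT, but the FAP change of −0.57 ± 0.46 was not called. With only FAP and Misc libraries fitted it was −0.55 ± 0.18 (adjusted p = 0.048), which made Pi16 an opposite change. Pdgfra, Ly6a and Cd34 were not called in Misc, and Ly6a stayed at 5.62 ± 1.76 CPM in Misc DKO against 5.47 ± 2.07 in Misc WT. Pdgfra had 351, 352, 399.7 and 291 CPM in Misc DKO against 411, 473, 485 and 429.9 CPM in Misc WT. Those groups did not overlap, so the missed call (−0.37 ± 0.39) does not show that Pdgfra was unchanged in Misc. Has1, a hyaluronan synthase, averaged 1917 ± 371 CPM in FAP DKO and 1236 ± 163 in FAP WT (0.63 ± 0.27, adjusted p = 0.15). It rose in Misc, with 191, 309.9, 194 and 249 CPM in DKO against 24.3, 42.4, 53.3 and 31.0 CPM in WT.

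Aspn, a small leucine-rich proteoglycan that binds collagen, had 608, 571, 619.7 and 736 CPM in FAP DKO against 480.1, 473, 437 and 417 CPM in FAP WT. Its Misc libraries held 1395, 2029, 2176 and 2098 CPM in DKO against 327, 272, 253 and 209 CPM in WT. FAP held less Aspn than Misc in DKO and more in WT, and the contrast was −2.37 ± 0.30 (adjusted p = 0.00011). Its FAP change of 0.49 ± 0.21 missed the threshold in the fit of all libraries and passed with FAP and Misc alone (0.50 ± 0.13, adjusted p = 0.013), which moved Aspn to the same-direction group. Fn1, which encodes fibronectin, averaged 6565 ± 632 CPM in FAP DKO and 6125 ± 560.2 in FAP WT, while the Misc means were 6365 ± 874 CPM in DKO and 2660.2 ± 194 for WT. The ranges of FAP and Misc overlapped in DKO and were far apart in WT. Fmo2, a flavin-containing monooxygenase, had −0.10 ± 0.24 in FAP and rose in Misc (2.66 ± 0.29). Fam131b had −0.40 ± 0.18 in FAP and rose in Misc (1.69 ± 0.22).

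Among genes that fell in Misc only, Met, the receptor of hepatocyte growth factor, overlapped between the FAP groups, at 27.7 ± 7.48 CPM in DKO and 25.0 ± 4.83 in WT. In Misc, Met had 39.2, 40.1, 31.6 and 46.5 CPM in DKO against 89.8, 95, 101 and 117 CPM in WT. The Misc DKO libraries lay below all Misc WT libraries (−1.35 on the log2 scale). Gdf6, a ligand of the bone morphogenetic protein family, had 0.63 ± 0.25 in FAP and fell in Misc (−1.31 ± 0.27). Aass, an enzyme of lysine breakdown, averaged 2.35 ± 1.06 CPM in FAP DKO and 2.22 ± 0.589 in FAP WT, and fell to 4.25 ± 1.23 CPM in Misc DKO, against 15.2 ± 2.63 in Misc WT.

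The 42 same-direction genes were 28 that rose and 14 that fell in both populations, and 12 of them changed more in FAP. Thbs4, a thrombospondin of tendon and injured muscle (chr13:92751586-92794818, mm10), had 2677, 3231, 2565 and 4178 CPM in FAP DKO against 368, 272, 318 and 363 CPM in FAP WT. Its levels in Misc were 29314, 29579, 28368 and 39112 CPM in DKO against 17292, 15189.6, 16947 and 15047 CPM in WT. It rose in every DKO library of both populations, by 3.26 ± 0.18 in FAP and 0.97 ± 0.17 in Misc, a difference of 2.29 ± 0.24. Col8a1, the partner chain of Col8a2, had 426, 444, 597 and 534 CPM in FAP DKO against 114, 113, 90.1 and 107 CPM in FAP WT. In Misc it had 505, 544, 646 and 523 CPM in DKO against 463, 425, 378 and 405 CPM in WT. Both chains of type VIII collagen thus rose in FAP, while in Misc Col8a1 rose a little (0.41 ± 0.13) and Col8a2 fell (−1.14 ± 0.19). Ddah1, which degrades an inhibitor of nitric oxide synthesis, had a contrast of 2.71 ± 0.34, with 3.94 ± 0.588 CPM in FAP DKO and 0.311 ± 0.104 in FAP WT, with 46.6 ± 6.41 in Misc DKO and 24.6 ± 4.13 in Misc WT.

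Postn, which encodes the matricellular protein periostin, was the reverse of Thbs4 in size. It had 1837, 1721, 876 and 1945 CPM in FAP DKO against 512, 517, 538 and 490.1 CPM in FAP WT. Misc libraries held 4377, 6294, 5859.5 and 7075 CPM of Postn in DKO against 675, 539.9, 428 and 599 CPM in WT. All groups were apart, the WT populations stood at similar levels, and the change was 1.63 ± 0.23 in FAP and 3.40 ± 0.24 in Misc (contrast −1.76 ± 0.32, adjusted p = 0.0034). FAP DKO 3, which held almost no Xist, was the low one for Postn in FAP, at 876 CPM. Misc DKO 3, which also held almost no Xist, was not the lowest in Misc, at 5859.5 CPM. A link of Postn with the sex of the material was not tested. Panx1, a large-pore membrane channel, averaged 59.0 ± 8.46 CPM in FAP DKO and 37.1 ± 4.27 in FAP WT, with 13.6 ± 3.67 in Misc DKO and 2.61 ± 0.565 in Misc WT. Mgam, the intestinal maltase-glucoamylase, also rose less in FAP (1.11 ± 0.23) than in Misc (3.04 ± 0.33). Hey1, a target gene of Notch signalling, rose in both as well (1.16 ± 0.12 in FAP and 2.00 ± 0.12 in Misc), and its contrast of −0.84 ± 0.18 was lost with counts thinned to the smallest library (adjusted p = 0.14).

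Matrix gene lists, and the other lists after them, are described by counts. These are read against 1.37% positive and 1.42% negative contrasts over all genes and a median contrast of −0.01. Of 20 matricellular genes tested, 6 had a positive contrast (Thbs1, Thbs2, Thbs4, Tnc, Ctgf and Wisp1) and Postn a negative one, with a median of 0.75 over the list. The Thbs2 call (adjusted p = 0.045) was lost in 14 of 16 fits that left out a library, up to 0.11 without FAP DKO 2. Of 35 matrix proteases and inhibitors, 4 were positive and none was negative. All 4 are ADAMTS genes (Adamts3, Adamts6, Adamts9 and Adamts17). Of 22 collagens outside the fibrillar and basement membrane lists, 4 were positive. Col8a1, Col8a2 and Col12a1 rose in FAP, whereas Col23a1 fell in Misc, and the Col23a1 call (adjusted p = 0.047) was lost in 13 of 16 fits that left out a library, up to 0.12 without FAP WT 2. Col12a1, a collagen that coats fibrils in tendon, averaged 302 ± 44.9 CPM in FAP DKO and 192 ± 10.4 in FAP WT, with 3027 ± 219 in Misc DKO and 3171 ± 242 in Misc WT.

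Elastic fibre and glycoprotein genes split, with 2 positive (Mfap4 and Matn2) and 3 negative (Fn1, Fbn1 and Mfap5) of 29 tested. Mfap5 had 0.15 ± 0.30 in FAP and rose in Misc (1.89 ± 0.31). Its contrast at an adjusted p of 0.042 was lost whichever of the 16 libraries was left out (0.061 to 0.099), while the fit of FAP and Misc alone gave 9.5e-08. The Fbn1 call (0.048) was lost in 14 of those 16 fits, up to 0.13 without Misc WT 4. Collagen crosslinking enzymes also split, with 2 positive and 2 negative of 25. Lox, the founding lysyl oxidase, averaged 455 ± 22.8 CPM in FAP DKO and 348 ± 22.3 in FAP WT, and fell in Misc, with 1466 ± 239 CPM for DKO and 2436 ± 138 for WT. Loxl1, its relative that acts on elastin, averaged 517 ± 40.1 CPM in FAP DKO and 449.9 ± 26.7 in FAP WT, and rose in Misc, with 349.7 ± 26.7 CPM in DKO and 169.5 ± 12.3 in WT. Of 23 basement membrane genes, 1 was positive (Col15a1) and 2 were negative (Col18a1 among them), all called in Misc only. The Col18a1 call (adjusted p = 0.043) was lost in 11 of 16 fits that left out a library, up to 0.13 without Misc DKO 4. Aspn was the 1 called of 13 small leucine-rich proteoglycans.

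**Figure D4:**
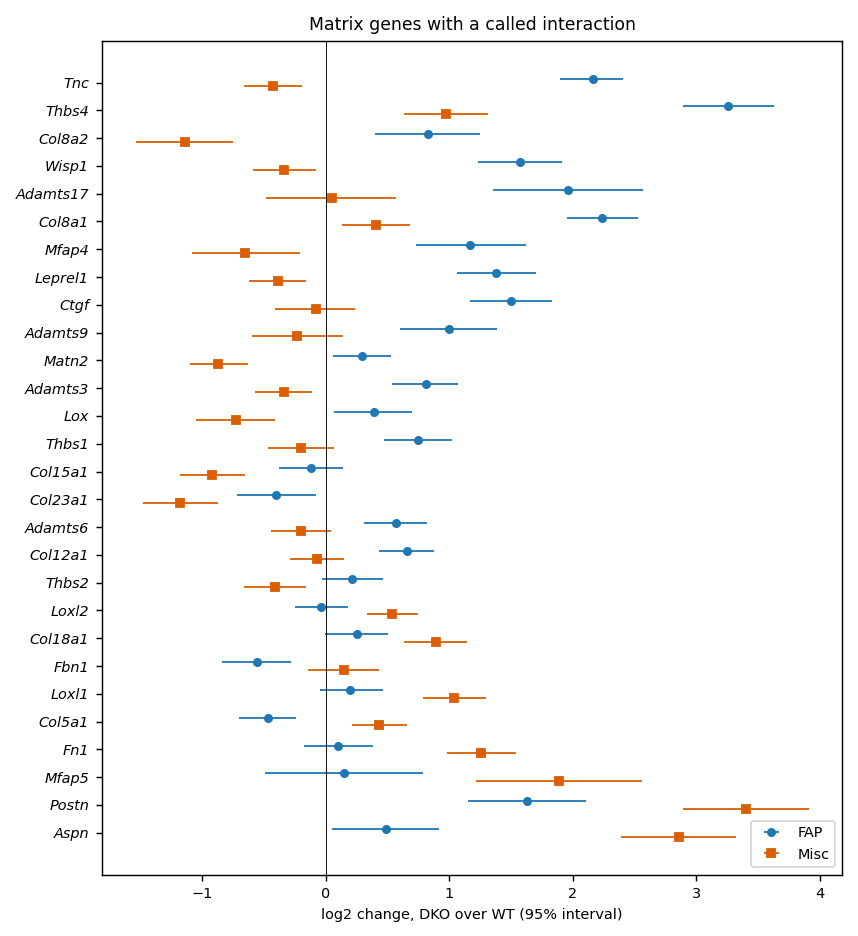
Log2 change of DKO over WT with its 95% interval, in FAP (circles) and Misc (squares), for the genes of the matrix lists reported here with a called difference, ordered by that difference. Tnc and Thbs4 at the top changed further upward in FAP, Postn and Aspn at the bottom changed further upward in Misc, and the Tnc, Col8a2, Mfap4 and Col5a1 intervals lie on opposite sides of 0.

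Of 43 genes of the TGF-beta and BMP pathway, 6 had a positive contrast and 3 a negative one. Leaving out 1 library in turn gave 4 to 6 positive and 0 to 3 negative, with 0 negative without Misc DKO 4, without Misc WT 1 and without Misc WT 4. Tgfb1, a central fibrogenic ligand, averaged 27.5 ± 3.6 CPM in FAP DKO and 19.8 ± 1.39 in FAP WT, with 55.2 ± 4.98 in Misc DKO and 25.7 ± 2.17 in Misc WT. It rose in both populations and more in Misc (contrast −0.64, adjusted p = 0.033), a call lost in 10 of 16 fits that left out a library, up to 0.11 without Misc DKO 4. Bmpr1b, Bmp5 and Chrdl1 fell in Misc, and of these Chrdl1 is a BMP antagonist, Bmp5 a ligand and Bmpr1b a receptor. The Bmp5 call (adjusted p = 0.028) was lost in 8 of those 16 fits, up to 0.064 without FAP DKO 4, and that of Chrdl1 (0.045) in 13, up to 0.11 without FAP WT 2. Fstl3, a secreted inhibitor of activins, rose in FAP (1.22 ± 0.29), and thinning the counts took its contrast to an adjusted p of 0.27. Id2, a target of BMP signalling, rose in FAP (0.80).

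Notch genes gave 3 negative contrasts of 18. Jag1, a Notch ligand, averaged 71.6 ± 5.21 CPM in FAP DKO and 68.7 ± 1.2 in FAP WT, with 54.2 ± 2.87 in Misc DKO and 24.9 ± 3.76 in Misc WT. Its rise was called in Misc only (FAP 95% interval −0.13 to 0.25), while Hey1 and its relative Heyl rose in both populations and further in Misc. The Heyl call (adjusted p = 0.047) was lost in 13 of 16 fits that left out a library, up to 0.12 without Misc WT 2, and was 0.053 with FAP and Misc alone. Wnt genes gave 2 positive and 3 negative contrasts of 26, and 1 to 3 positive and 2 or 3 negative with 1 library left out. The negative contrast of Rspo2 (adjusted p = 0.042) was lost in 12 of those 16 fits, up to 0.21 without Misc DKO 1. Frzb, a secreted Wnt antagonist, averaged 1.9 ± 0.317 CPM in FAP DKO and 1.04 ± 0.434 in FAP WT. It had 20.5, 6.35, 7.55 and 10.2 CPM in Misc DKO against 0.295, 1.03, 0.546 and 0.341 CPM in Misc WT, without overlap. Sfrp1, another antagonist, fell in both and further in Misc, with 68.3 ± 9.6 CPM in FAP DKO, 108 ± 9.83 in FAP WT, 13.7 ± 2.63 in Misc DKO and 49.1 ± 5.68 in Misc WT. Axin2, a target of beta-catenin, had 0.12 in FAP and fell in Misc (−0.74), and its contrast (adjusted p = 0.037) was lost in 11 of 16 such fits, up to 0.092 without FAP DKO 2.

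Smaller counts came from other lists, beside 2.79% called over all genes tested. Of 17 complement genes, 1 was positive (Masp1) and 1 negative. Neural adhesion genes gave 3 positive of 19, Cadm1 and Cdh11 among them, all called as falls in Misc. The Cadm1 call (adjusted p = 0.019) was lost in 1 of 16 fits that left out a library, at 0.068 without FAP DKO 1. Retinoid and hedgehog genes gave 3 negative of 21, Aldh1a3 and Hhip among them, and the Hhip call (0.034) was lost in 11 of the 16 fits, up to 0.095 without Misc WT 1. Synm, an intermediate filament partner of desmin, was higher in FAP DKO (0.49 ± 0.14) and lower in Misc DKO (−0.54 ± 0.13), one of 2 called in 14 nuclear envelope and intermediate filament genes. The other was Vim, the gene of vimentin, with 2617 ± 185 CPM in FAP DKO and 2379 ± 109 in FAP WT, then 2168 ± 157 in Misc DKO and 1324 ± 68.4 in Misc WT, and its call (0.031) was lost in 12 of the 16 fits, up to 0.11 without Misc DKO 4.

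The next counts are also read against 2.79% called over all genes tested. Of 30 chemokine and cytokine genes, Il13ra1 was negative and Ccl19 positive. Il13ra1, a receptor chain for interleukin 13, averaged 135 ± 16.9 CPM in FAP DKO and 131 ± 7.56 in FAP WT, with 96.3 ± 30.3 in Misc DKO and 33.2 ± 2.61 in Misc WT. The Ccl19 call (0.029) was lost in 8 of the 16 fits, up to 0.078 without Misc DKO 2. Of 34 growth factor genes Fgf1 alone was called, a share near that of all genes. Fgf1 averaged 40.8 ± 8.91 CPM in FAP DKO and 54.4 ± 8.19 in FAP WT, and 12.6 ± 4.64 in Misc DKO and 37.1 ± 3.96 in Misc WT. The Fgf1 call (0.023) was lost in 2 of the 16 fits, up to 0.056 without FAP DKO 4. Of 16 contractile genes Tpm1, a tropomyosin, alone was called, with 0.06 ± 0.14 in FAP and a fall in Misc (−0.76 ± 0.13). Of 29 cell cycle genes, Ccne1 was positive through a rise in FAP and Cdk1 negative through a rise in Misc, and these calls were lost in 12 and 9 of the 16 fits, up to 0.13 for Ccne1 without FAP DKO 4 and 0.095 for Cdk1 without FAP WT 1.

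Cell type lists were read for which population their markers moved in. Of 15 tendon genes, 4 had a positive contrast (Thbs4, Tnc, Col12a1 and Ptx4), with a list median of 0.97, and of these Thbs4 and Tnc are also matricellular. The Ptx4 call (adjusted p = 0.04) was lost in 9 of 16 fits that left out a library, up to 0.13 without FAP DKO 1. Scx, the transcription factor of tendon cells, rose in FAP to 2.64 ± 1.38 CPM in DKO, against 0.725 ± 0.115 in WT, and its contrast of 1.14 ± 0.40 was not called. Of the 15 tendon genes, 5 were called higher and 1 lower in FAP. Fmod, Tnmd, Comp, Mkx, Kera and Chad, abundant in Misc, did not pass in FAP in the fit of all libraries. The list gave 6 positive contrasts by DESeq2's Wald test and 6 with FAP and Misc libraries alone. A replicate block of the 4 numbers gave 8, and 0 were negative in each of these fits. Fmod averaged 514 ± 130.4 CPM in FAP DKO and 310.2 ± 53.5 in FAP WT (0.73 ± 0.27, adjusted p = 0.09), and Tnmd, given above, had 0.50 ± 0.21. Comp averaged 171 ± 11.8 CPM in FAP DKO and 92.6 ± 16.2 in FAP WT, without overlap (0.88 ± 0.35, adjusted p = 0.12). Mkx had 1.59 ± 0.68 CPM in FAP DKO and 1.75 ± 0.733 in FAP WT. Kera had 28.5 ± 13.6 CPM in FAP DKO and 34.1 ± 5.46 in FAP WT, and Chad 16.2 ± 5.72 in FAP DKO and 19.5 ± 4.8 in FAP WT. In Misc, Mkx (−0.69 ± 0.12), Kera (−1.22 ± 0.34) and Chad (−1.08 ± 0.28) were called lower in DKO, though their contrasts were not called. Scx was called higher in Misc DKO (0.59 ± 0.15), and Fmod, Tnmd and Comp were not called in Misc. Of the 15 tendon genes, 3 were called higher and 4 lower in Misc. The summed level of the tendon list was 8769.6 to 10202 CPM in FAP DKO and 6689 to 7945 CPM in FAP WT, without overlap, and 64129 to 88017 CPM in Misc DKO and 68708 to 72428 CPM in Misc WT. Abundant members weigh most in this sum. Thbs4 alone averaged 3163 ± 737 CPM in FAP DKO and 330.0 ± 44.9 in FAP WT, and 31593 ± 5039 in Misc DKO and 16119 ± 1165 in Misc WT. Fmod averaged 21119 ± 4549 CPM in Misc DKO and 30540.4 ± 1252 in Misc WT. The list without Thbs4 was not summed, so the sums do not show a shift of the list as a whole. Of 22 progenitor identity genes, 4 were negative (Pi16, Has1, Mfap5 and Nt5e), the first 3 through a rise in Misc. In Misc, 3 of the 22 were called higher and 5 lower, beside 9.15% and 9.55% of all genes tested. In FAP, 0 were called higher and 3 lower. With FAP and Misc libraries alone, the list gave 2 positive and 4 negative contrasts. The Nt5e call (adjusted p = 0.028) rested on a fall in FAP and was lost in 9 of 16 fits that left out a library, up to 0.072 without Misc WT 2. The summed level of the progenitor list was 20641 to 23021 CPM for Misc DKO and 27434 to 29306 CPM for Misc WT. The sum was thus lower in Misc DKO while Pi16, Has1 and Mfap5 rose. Abundant members weigh most in this sum too, so it does not show a shift of the list as a whole. The median Misc change over the list was −0.23.

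No gene had a called contrast in edgeR in the endothelial (14 tested), leukocyte (14), pericyte and smooth muscle (11), Schwann cell (15), myogenic (19), muscle fibre (22) and erythroid (1) lists. The same held for interferon response (25), immediate early (24), adipogenic (23), cartilage and bone (16), oxidative phosphorylation (27), secretory folding (22) and dystrophin complex (13) genes. Of the 245 genes in these lists, 42 had an unadjusted p below 0.05, and DESeq2's Wald test called 6 and the fit of FAP and Misc alone 10. Over all genes, 1807 of 14179 had an unadjusted p below 0.05. DESeq2 called 555 of 14179, and the fit of FAP and Misc alone 590 of 13133. The median contrast was −1.21 in the myogenic list and −0.79 in the leukocyte list. A median counts scarce genes as much as abundant ones. Pax7 averaged at most 1.21 CPM in any FAP or Misc group, with a contrast of −2.10 ± 1.63. Ptprc averaged at most 0.496 CPM there, with a contrast of −3.12 ± 3.89. The myogenic sums of DKO and WT overlapped within each population. FAP DKO libraries summed to between 542 and 619 CPM, FAP WT libraries to between 566 and 663. For Misc the ranges were 513 to 685 (DKO) and 547 to 613 (WT). Summed endothelial markers were 328 to 442 CPM in FAP DKO and 505 to 662 CPM in FAP WT, then 203 to 236 over Misc DKO and 239 to 289 over Misc WT. Schwann cell markers summed to 63.2 to 85.6 CPM over the Misc DKO libraries and 122 to 145 CPM over Misc WT. Their FAP ranges overlapped, at 71.3 to 114 CPM in DKO and 76.5 to 122 CPM in WT. Muscle fibre markers summed to 76.8 to 134 CPM over Misc DKO libraries and 59.3 to 70.9 CPM over Misc WT. In FAP their ranges overlapped, at 47.8 to 76.9 CPM in DKO and 39.8 to 63.7 CPM in WT. Leukocyte markers summed to 30.7 to 121 CPM in FAP DKO and 15.3 to 49.1 CPM in FAP WT, with Cd3e at 0 in all 16 libraries. The leukocyte sums in Misc were 21.2 to 41.9 CPM in DKO and 15.3 to 21.7 CPM in WT. DKO and WT thus overlapped in both populations. The median change over the leukocyte list was 1.22 in FAP and 1.94 in Misc. The part of these shifts in the genes above was not tested.

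The contrast is by construction the difference between conditions in the FAP minus Misc gap, and the gap can be described in each condition. It was smaller in DKO than in WT at 283 of the 396 called genes (71.5%), beside 7916 of all 14179 tested (55.8%). Among opposite genes this held for 26 of 33, among FAP-only genes for 76 of 97, among Misc-only genes for 146 of 212 and among same-direction genes for 25 of 42. The median size of the gap over the called genes was 0.75 in DKO and 1.16 in WT on the log2 scale. Tnc, Pi16, Has1, Islr2, Wnt5a and Met were genes whose populations stood closer in DKO, and Postn one whose populations stood further apart. No test was made on this share, since the contrast that chose the genes is itself the difference of the gaps.

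**Figure D5:**
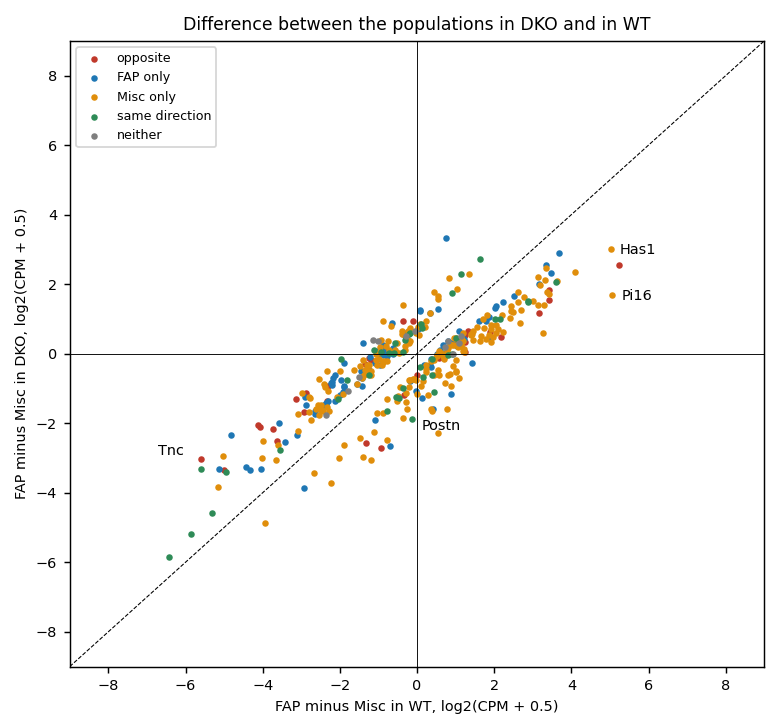
FAP minus Misc on the log2(CPM + 0.5) scale in DKO (vertical) against WT (horizontal) for the 396 genes with a called difference, coloured by class, with the dashed line where both gaps are equal. Points between the dashed line and the horizontal zero line had a smaller gap in DKO, as at Tnc and Pi16, and 283 of 396 genes had a smaller gap in DKO.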

How the data were processed

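The 20 mouse libraries were sequenced on an Illumina HiSeq 2500. Per the series design text, OSA aligned the reads to mm10 and RefSeq supplied the genes, while the submitters' processing notes list DESeq2 with no version. What the authors deposited are unnormalized counts for each gene. The sources used here give neither the counting tool nor its use of strand, so reads of overlapping genes cannot be told apart. All 24393 genes were read, with symbols and coordinates from RefSeq for GRCm38.p6, which matched 24312 identifiers. The 25 blank and 27 date-like symbols were restored.

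Genes were kept by edgeR's filterByExpr (minimum count 10, minimum total 15), leaving 14179 genes. After TMM scaling, edgeR 4.0.16 (run in R 4.3.3) fitted a robust quasi-likelihood model over 6 groups and 20 libraries, with no block. Adjusted p-values are Benjamini-Hochberg over all genes tested, called below 0.05. A standard error is the absolute log2 value divided by the square root of F. Means carry the SD over 4 libraries.

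The sorting into classes, the gene lists and the ranking rule were chosen with earlier results of these data known. The rule ranked called genes by the size of the contrast, with mean CPM of at least 5 over the 16 libraries and 1 in each population, DKO and WT not overlapping where called, and predicted genes left out. It took 6 opposite genes each way, 4 each way per population-only class, 3 each way of the same-direction class and up to 4 called members per list. Ctgf, Thbs1, Thbs2, Fbn1, Tgfb1, Chrdl1, Id2, Axin2, Zyx, Epha4 and Actn1 fall outside it and were named after their values were seen. So do Sdc1, Psat1 and the genes named only to complete the opposite class. These are not among the 83 named called genes counted below. Some genes that the rule picks are not reported here.

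Replicate numbers were checked before blocked calls were read. Deviations from group means correlated between FAP and Misc at 0.18 to 0.34 (DKO) and 0.18 to 0.23 (WT) where the number was shared, against −0.18 to 0.06 where it was not. The pairing comes only from these correlations, since the labels do not give one. On simulated counts (13980 genes tested) the fit called 66% of genes changed 2-fold in FAP only and 86% of those changed 4-fold. It called 86% and 100% of genes changed oppositely by 2-fold and 4-fold in each population, put 72% and 96% of these in the opposite class, and called 9 unchanged genes. Alternatives were DESeq2 1.42.0, its size factors, no filter, FAP and Misc libraries alone, replicate blocks, thinned counts, stricter thresholds and libraries left out.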

Additional observations from a re-analysis of the deposited data

Results flagged for a closer look

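The contrast, the DKO change in FAP minus that in Misc, differed from 0 in each of the 33 genes ranked by its size and given here, since that is how they were chosen. Among opposite changes with FAP on the rising side, its log2 value was 2.58 for Tnc, 1.97 for Col8a2, 1.82 for Cgref1, 1.82 for Mfap4, 1.77 for Leprel1 and 1.60 for Myo7a. With FAP on the falling side it was −3.06 for Islr2, −2.13 for Opcml, −2.04 for Tmem200c, −2.01 for Dact2, −1.77 for Vash1 and −1.61 for Tmeff2.

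Among genes called in FAP only, the contrast was 2.55 for C1qtnf3, 1.95 for Nipal1, 1.91 for Adamts17 and 1.91 for Wisp1, against −2.28 for Kcnab1, −2.16 for Prkg2, −1.56 for Ntm and −1.42 for Aldh1a3. Among genes called in Misc only it was 1.96 for Aass, 1.94 for Gdf6 and 1.5 for Met, which fell in Misc, and −3.39 for Pi16, −2.76 for Fmo2, −2.37 for Aspn and −2.09 for Fam131b, which rose there. Among genes that moved the same way in both populations it was 2.71 for Ddah1, 2.29 for Thbs4, 1.83 for Col8a1, −1.93 for Mgam, −1.76 for Postn and −1.71 for Panx1.

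A single library stood apart from the other libraries of its group for 8 of these genes. Chance alone flags about 1 in 20 of the 132 groups examined. Leprel1 had 157 CPM in Misc WT 4, with 141 to 143 CPM in the other Misc WT libraries. Vash1 had 4.42 CPM in Misc WT 2, with 5.83 to 6.02 in the others. Tmeff2 had 20.6 CPM in Misc DKO 4, with 16.2 to 16.8 in the others. Thbs4 had 39112 CPM in the same library, with 28368 to 29579 in the others.

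In FAP, Wisp1 had 12.5 CPM in FAP DKO 1, with 14.8 to 15.2 in the other FAP DKO libraries. Kcnab1 had 2.32 CPM in FAP DKO 3, with 0.686 to 0.94 in the others. Aass had 3.92 CPM in FAP DKO 4, with 1.57 to 1.96 in the others. Gdf6 had 6.69 CPM in FAP WT 2, with 4.47 to 4.67 in the other FAP WT libraries.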

How the results depend on the processing

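No alternative reversed the contrast of a named called gene, but the balance of calls, 194 positive and 202 negative, turned to 330 and 260 with FAP and Misc libraries alone, 288 and 267 by DESeq2 and 196 and 167 with no filter. With FAP and Misc libraries alone and a replicate block of 8 pairs, numbers shared by FAP and Misc of 1 condition, the contrast was called for 1246 genes, against 590 on those libraries without the block and 396 with all libraries. A replicate block of the 4 numbers across all 16 libraries gave 733 genes, with 90 opposite, 164 FAP-only, 342 Misc-only and 117 same-direction genes and 2338 called in FAP itself. DESeq2's Wald test gave 50 opposite genes among 555. FAP and Misc libraries alone gave 64 opposite and 71 same-direction genes among 590. At an adjusted p below 0.01 there were 160 genes, with 10 opposite, 37 FAP-only, 88 Misc-only and 18 same-direction, and 737 and 1473 called in FAP and in Misc. A contrast of at least 2-fold left 182 genes, with 35 FAP-only, 102 Misc-only and 17 same-direction. Without FAP DKO 1 and FAP WT 1 together there were 280 genes, with 140 Misc-only and 26 same-direction. Without FAP DKO 3 and Misc DKO 3, chosen after seeing the data, there were 290, of which 265 were shared. DESeq2's size factors gave 387 genes, no filter 363 and counts thinned to 1 depth 321. Leaving out each library in turn gave 279 (without FAP DKO 4) to 379 genes for the contrast, 932 (without FAP DKO 2) to 1696 for FAP and 2002 to 2662 for Misc. Without FAP WT 1 the FAP count was 997. Opposite genes numbered 22 (without FAP DKO 2) to 41, FAP-only 62 (without FAP DKO 4) to 103, Misc-only 137 (without Misc WT 2) to 197 and same-direction 25 (without FAP WT 3, and without Misc WT 1) to 45. Same-direction genes also numbered 26 without FAP WT 4 and 27 without FAP DKO 4 or without Misc WT 2. Of 83 named called genes, 61 were called in all 16 of these fits, and of the 33 ranked by size all but Ntm. Negative contrasts fell to 1 or 2 of 3 elastic fibre and glycoprotein genes in every one of these fits, to 2 of 4 progenitor identity genes in 9 and to 1 of 3 retinoid and hedgehog genes in 8. Positive contrasts of neural adhesion genes fell to 1 of 3 without FAP DKO 1. The cause of these shifts was not tested, beyond the fewer libraries and stricter thresholds that some settings have by construction. With 4 libraries a group, genes called in 1 population only include those whose change in the other was too uncertain to bound.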
